A study of Mus musculus with 50 samples.

Results

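Data on 7 genes that mark the primitive endoderm and its derivatives, *Sox7*, *Sox17*, *Dab2*, *Pdgfra*, *Sparc*, *Hnf4a* and *Afp*, were examined in mouse embryonic stem cells (ESCs). The genes were chosen by name, with earlier results of these data known, and all 7 were among the 18055 genes of the RNA-seq table. The study asked how the methylation and acetylation of histone H3 lysine 27 (H3K27) act on gene expression in ESCs. The cells were E14TG2a (WT) and CRISPR/Cas9 lines made from it, grown on gelatin with 2i, LIF and serum. The *Ezh2* KO line lacks the *Ezh2* gene and keeps *Ezh1*, the *Ezh1/2* dKO line lacks both, and the *Ezh2* Y726D line carries a point mutation in the catalytic SET domain of EZH2 and was made in *Ezh1* KO cells. The *Ezh2* R685C line, with another point mutation in the same domain, was also made in *Ezh1* KO cells. The ChIP-seq samples labelled with Y726D alone were taken as the line that also lacks *Ezh1*. Each mutant line is a clone, so a difference between lines cannot be told apart from a difference between clones. RNA-seq covered 4 of these lines, all but *Ezh2* R685C, with 2 libraries each. ChIP-seq peak lists of SUZ12 and H3K27me3 were available for all 5 lines, and of H3K27ac for the 4 mutant lines, with 1 library per line and target. HA ChIP-seq was available for *Ezh1/2* dKO cells transfected with HA-tagged human EZH1 and selected with puromycin. Untransfected *Ezh1/2* dKO cells were its control.

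The primitive endoderm is the layer of the blastocyst that forms beside the epiblast, from which ESCs derive. FGF4 from the epiblast precursors acts through FGF receptors to induce GATA6 and then GATA4, PDGFRA, SOX17 and SOX7, while the MEK inhibitor of 2i medium blocks this signal. Parietal endoderm cells then secrete a thick basement membrane with collagen IV, laminins and SPARC, whereas visceral endoderm cells absorb and secrete nutrients and express DAB2, HNF4A and AFP. Polycomb Repressive Complex 2 (PRC2) contains SUZ12 and EZH1 or EZH2 and methylates H3K27, and H3K27me3 is typical of CpG-rich promoters of developmental genes that are silent in ESCs. H3K27ac occupies the same residue and is typical of active promoters and enhancers.

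The promoters of the members differed in sequence. RefSeq (GRCm38.p6) promoters of 5 members were available, and each was placed at a single position in mm9, the genome build of the peak lists. *Sox7* and *Sox17* have no entry in the table. The 250 bases before the start site are shown for both *Dab2* entries, for *Pdgfra*, for *Sparc* and for *Afp*. These were chosen because the 4 genes ranged from H3K27me3 to H3K27ac or no peak at all. Capitals mark CG dinucleotides, and positions are those of mm9.
*Dab2*, internal start, chr15:6336498-6336747, + strand: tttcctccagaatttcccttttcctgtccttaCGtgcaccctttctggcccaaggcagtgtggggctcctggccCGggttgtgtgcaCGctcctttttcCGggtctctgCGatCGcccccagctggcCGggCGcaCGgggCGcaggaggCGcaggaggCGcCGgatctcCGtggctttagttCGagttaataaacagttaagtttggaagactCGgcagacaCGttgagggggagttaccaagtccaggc
*Dab2*, 5′ start, chr15:6249539-6249788, + strand: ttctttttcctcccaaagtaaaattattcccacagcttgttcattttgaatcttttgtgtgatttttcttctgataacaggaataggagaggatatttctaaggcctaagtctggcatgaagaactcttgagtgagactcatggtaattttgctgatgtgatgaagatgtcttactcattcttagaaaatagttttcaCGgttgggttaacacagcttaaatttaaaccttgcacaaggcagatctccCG
*Pdgfra*, chr5:75548026-75548275, + strand: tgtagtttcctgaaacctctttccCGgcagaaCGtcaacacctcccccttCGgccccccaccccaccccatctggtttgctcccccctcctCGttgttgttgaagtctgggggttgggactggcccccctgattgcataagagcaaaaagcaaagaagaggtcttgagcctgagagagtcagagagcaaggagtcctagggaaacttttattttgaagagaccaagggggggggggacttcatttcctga
*Sparc*, chr11:55233583-55233832, - strand: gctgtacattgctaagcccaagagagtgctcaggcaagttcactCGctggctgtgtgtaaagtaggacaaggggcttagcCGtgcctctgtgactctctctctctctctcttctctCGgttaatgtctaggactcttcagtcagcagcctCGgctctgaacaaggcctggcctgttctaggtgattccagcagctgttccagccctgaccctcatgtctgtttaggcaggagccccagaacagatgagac
*Afp*, chr5:90919490-90919739, + strand: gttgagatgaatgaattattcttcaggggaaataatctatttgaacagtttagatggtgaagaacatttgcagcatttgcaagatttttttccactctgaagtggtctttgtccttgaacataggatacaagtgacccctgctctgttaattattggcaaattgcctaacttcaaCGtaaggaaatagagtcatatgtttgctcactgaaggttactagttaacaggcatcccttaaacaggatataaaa

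Over the whole 300 bases of the table entry, from 250 before to 50 after the start, the internal *Dab2* promoter held 19 CG dinucleotides, more than 71.9% of the 32841 promoters in the table. The 5′ *Dab2* promoter held 2, and those of *Pdgfra*, *Sparc* and *Afp* held 5, 4 and 3, where the median promoter held 7. The printed *Pdgfra* sequence ends 40 bases before the start site of the mm9 gene model, which the 300 bases include. Of the 7 entries of the 5 members, the letters TGATAA, a form of the site bound by GATA factors, were found on either strand only in the 5′ *Dab2* promoter, and 9.05% of all promoters hold them. The letters TATAAA were found only in that of *Afp*, 7 bases before the start, and 13.6% of all promoters hold them. Both motifs were searched on both strands, and they do not overlap each other. Other forms of the GATA site were not searched, so a promoter without TGATAA may still hold one.

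The libraries held 3604123 to 5181553 reads on genes, so a gene with a normalized count of 1 was seen with about 1 read. *Ezh2* had 1 or 2 reads per library in *Ezh2* KO and *Ezh1/2* dKO cells and a mean normalized count of 572 ± 36.6 (SD, n = 2) in WT and 517 ± 135 (SD, n = 2) in *Ezh2* Y726D cells. *Ezh1* was at 302 ± 107 (SD, n = 2) in WT, 17.2 ± 4.53 (SD, n = 2) in *Ezh1/2* dKO and 19.9 ± 5.95 (SD, n = 2) in *Ezh2* Y726D cells, so both genes matched the labels. The 10 pluripotency genes fixed as ESC markers summed to 14129 to 16836 normalized counts per library, and limma called 0 of them in each comparison with WT, as did edgeR and DESeq2, while 1 (*Klf4*, in *Ezh1/2* dKO) had an unadjusted p under 0.05. The labels do not say whether the 2 libraries of a line come from separate cultures, so the p-values below measure the spread between libraries, which may be technical. In bulk RNA, a few cells with a high level and many cells with a low level of an endoderm gene cannot be told apart.

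The first question was whether PRC2 and its mark were present at these genes. In WT cells, 4 of the 7 members (*Sox7*, *Sox17*, *Dab2* and *Pdgfra*) had a SUZ12 peak within 5 kb of a start site, against 16.9% of the 17424 promoters of table genes with an annotated start. An H3K27me3 peak was listed at 5 members, the same 4 genes and *Hnf4a*, against 21.5% of promoters. *Sparc* and *Afp* had neither. The lists of *Ezh1/2* dKO held 1 member with SUZ12 (1.15% of promoters) and no member with H3K27me3 (0.103%). That H3K27me3 list holds 53 peaks on 15 chromosomes and has no entry on chromosome 15, where *Dab2* lies. The lists of *Ezh2* Y726D held 3 members with SUZ12 (11.9%) and no member with H3K27me3 (1.11%). *Ezh2* KO showed SUZ12 at 3 members (4.79%) and H3K27me3 at 4 (16.7%), while *Ezh2* R685C showed SUZ12 at 3 (9.62%) and H3K27me3 at 4 (27.3%). No difference between lines was tested, since each list comes from 1 library, and the reads behind each list are unknown. The lists hold only peaks past a -log10 p of 10, so an unlisted peak is one below this limit and not one shown to be absent.

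**Figure D1:**
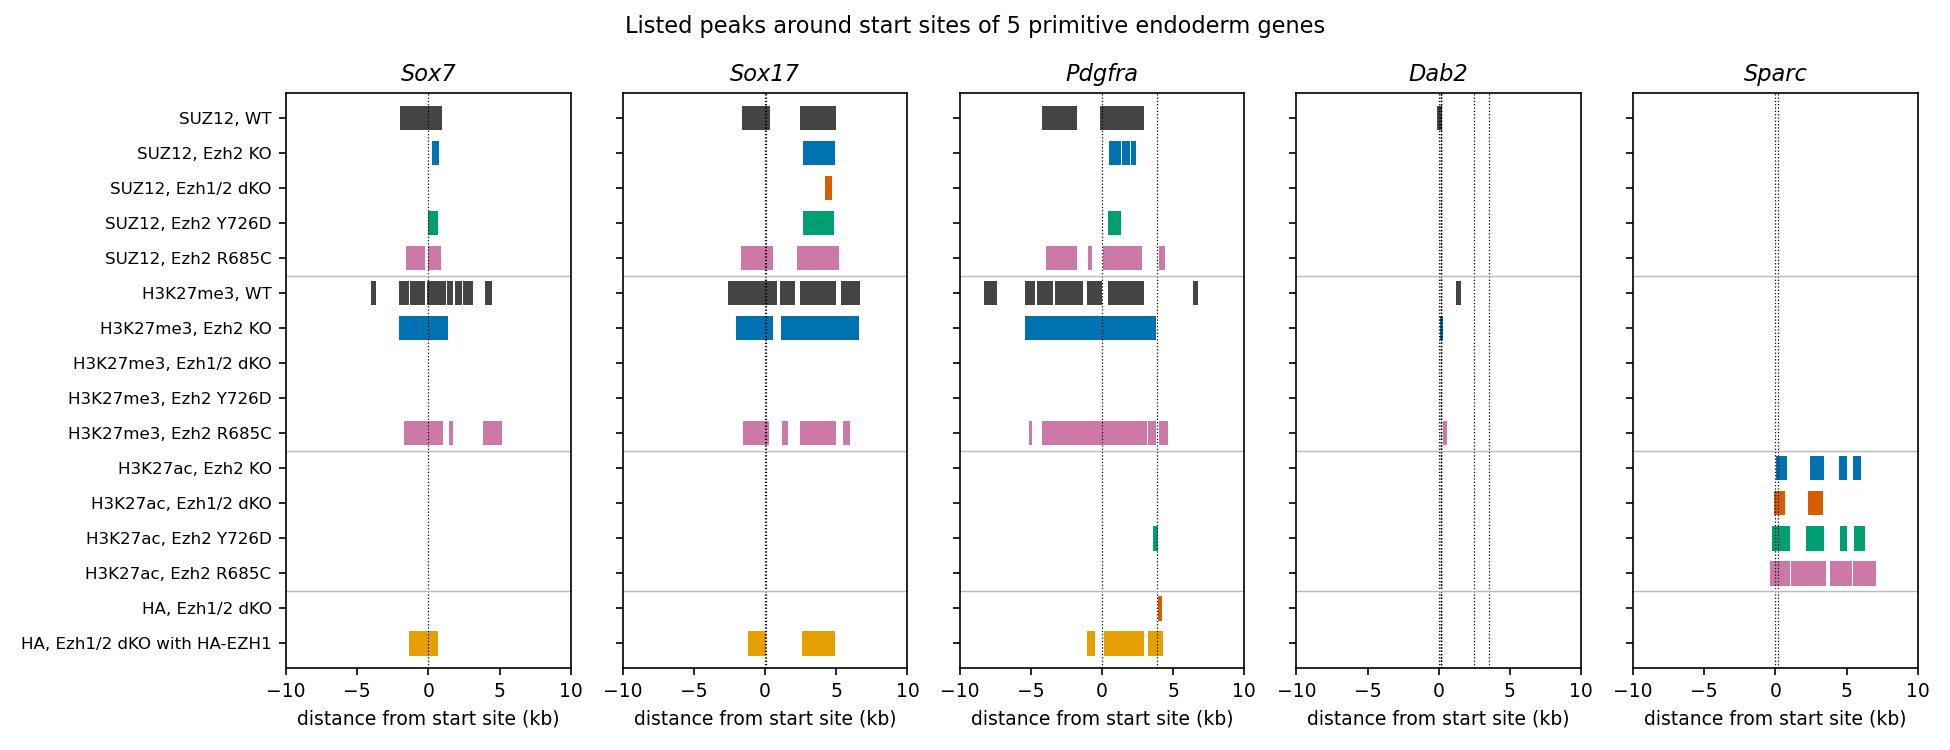
Peaks listed for SUZ12, H3K27me3, H3K27ac and HA (rows, by line) within 10 kb of a start site of *Sox7*, *Sox17*, *Pdgfra*, *Dab2* (its internal start) and *Sparc*. The horizontal axis is the distance from the start in kb along the gene, bars span each peak, and dotted lines are annotated start sites. SUZ12 bars of *Sox7*, *Sox17* and *Pdgfra* are present in *Ezh2* Y726D without any H3K27me3 bar, and *Sparc* has only H3K27ac bars.

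*Sox17*, which encodes a transcription factor required for endoderm, had the SUZ12 peak with the highest -log10 p of the members in WT. The gene lies on chr1:4481009-4486494 on the - strand. In WT cells, a SUZ12 peak of 2525 bp in the 3′ part of the gene, 2.41 kb after the start, had a -log10 p of 135.2, and a second peak over the start had 66.9. The stronger of these was at or above 98.5% of the 2945 promoters with a SUZ12 peak. The 3′ peak was listed in every line, with a -log10 p of 36.0 in *Ezh2* KO, 43.6 in *Ezh2* R685C, 21.6 in *Ezh2* Y726D and 11.7 in *Ezh1/2* dKO. This was the only SUZ12 peak of a member in *Ezh1/2* dKO cells, 499 bp wide, and it lay 4.17 kb from the start. The peak over the start was listed again only in *Ezh2* R685C, with 29.1. H3K27me3 covered 7071 bp of the window in WT, 6563 bp in *Ezh2* KO and 4761 bp in *Ezh2* R685C cells, and nothing in *Ezh1/2* dKO or *Ezh2* Y726D.

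*Sox7*, the related SoxF factor on chr14:64562511-64569569, carried 1 SUZ12 peak of 2971 bp over its start in WT cells, with a -log10 p of 89.1. In *Ezh2* KO a peak of 462 bp began 0.25 kb after the start with 10.8, close to the threshold, and in *Ezh2* Y726D it was 672 bp wide with 14.6. In *Ezh2* R685C cells 1 peak ended 0.24 kb before the start, with 29.1, and another lay over it, with 14.6. H3K27me3 was listed in WT as 8 separate peaks covering 5482 bp within 5 kb, in *Ezh2* KO as 1 peak of 3448 bp with a -log10 p of 122.6, and in *Ezh2* R685C with at most 189.7. The strongest -log10 p of H3K27me3 at this gene in WT, 17.3, was below those of *Ezh2* KO and *Ezh2* R685C, as it was at *Sox17* and *Pdgfra*. Each -log10 p depends on the depth and input of its library, so the level of the mark is not compared between lines.

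*Pdgfra*, which encodes a receptor for PDGF and marks primitive endoderm precursors in the blastocyst, lies on chr5:75548316-75594229. WT cells had a SUZ12 peak of 3069 bp over the start with a -log10 p of 79.1 and another 1.78 kb before it with 25.2. In *Ezh2* KO cells 3 peaks followed the start, with 36.0, 14.6 and 10.8, and in *Ezh2* Y726D 1 peak was listed with 16. In *Ezh2* R685C 4 peaks were listed, the strongest with 84.5. H3K27me3 formed a single peak of 9191 bp in *Ezh2* KO, with a -log10 p of 329.2, and *Ezh2* R685C had 4 peaks, the widest of 7436 bp with 350.1. In WT, 6 peaks within 5 kb covered 7315 bp with at most 32.0. The *Pdgfra* sequence printed above lies partly inside the WT SUZ12 peak and inside both of these H3K27me3 peaks.

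*Dab2* encodes an endocytic adaptor and is annotated on chr15:6249788-6390712 with 12 start sites. Its SUZ12 and H3K27me3 peaks lay at or near internal starts. A SUZ12 peak of 347 bp in WT covered the printed sequence, with a -log10 p of 13.6, at or above 17% of the promoters with a SUZ12 peak. H3K27me3 peaks of 200 to 349 bp were listed 0 to 0.88 kb from an internal start in WT, *Ezh2* KO and *Ezh2* R685C, with 12.2, 10.7 and 10.1. The 5′ start had no peak of any of these targets. *Hnf4a*, a nuclear receptor of the visceral endoderm and liver on chr2:163332544-163398646, had only a 262 bp H3K27me3 peak in WT, with 11.2, 1.14 kb after an internal start. The PRC2 peaks of *Dab2* and *Hnf4a* were thus near the threshold, and with a p of at most 1e-20 they, and *Sox7* for WT H3K27me3, were no longer counted.

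H3K27ac was listed at *Sparc* in all 4 mutant lines and at other members only in *Ezh2* Y726D. *Sparc*, a secreted matrix protein of parietal endoderm on chr11:55208002-55233582 on the - strand, had a peak over its start in all 4 mutant lines. The -log10 p of this peak was 13.5 in *Ezh2* KO and 10.5 in *Ezh1/2* dKO. It was 23.3 in *Ezh2* Y726D and 23.9 in *Ezh2* R685C, and further peaks were listed inside the gene in all 4 lines. *Sparc* was the only member with H3K27ac in *Ezh2* KO (47.6% of all promoters), *Ezh1/2* dKO (36%) and *Ezh2* R685C (58%). In *Ezh2* Y726D, where 59.1% of promoters had one, *Pdgfra* and *Hnf4a* were added. The *Pdgfra* peak of 327 bp lay over the second start site with 11.3, and the strongest of *Hnf4a* lay 2.78 kb after a start with 24.2. *Sox7*, *Sox17*, *Dab2* and *Afp* had no H3K27ac peak within 5 kb in any of the 4 lists. WT H3K27ac was not analysed here.

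In *Ezh1/2* dKO cells transfected with HA-tagged human EZH1, HA peaks were listed at *Sox7*, *Sox17*, *Pdgfra* and *Hnf4a*, against 12.5% of promoters. In *Ezh1/2* dKO cells without the tag, which serve as the control, HA peaks were listed at *Pdgfra* and *Hnf4a* (3.25% of promoters). The *Hnf4a* peaks of the 2 lists are nearly the same interval, and 1 of the 3 *Pdgfra* peaks overlapped the control peak, so the HA signal at *Sox7* and *Sox17* and at the 2 other *Pdgfra* peaks has no counterpart in the control. The HA peak of *Sox17* in the 3′ part of the gene, 2308 bp wide, covered the *Ezh1/2* dKO SUZ12 peak. H3K27me2 was listed as broad regions with a low threshold. In *Ezh2* KO cells these covered the starts of *Sox17*, *Pdgfra* and *Sox7* within 1 kb with a -log10 p of 8.1, 6.3 and 5.4, where 39.1% of promoters had a region. In WT no H3K27me2 region lay within 1 kb of these 3 starts, while 47.4% of promoters had one. The WT regions of *Dab2* and *Hnf4a* had a -log10 p of 1.6 and 1.4, and the *Ezh2* KO regions of *Dab2*, *Hnf4a* and *Afp* had 2.8, 2.4 and 1.5. No H3K27me2 region within 1 kb of a member exceeded a -log10 p of 1.7 in *Ezh1/2* dKO (49.5% of promoters with a region) or *Ezh2* Y726D cells (58.2%). Since the members did not exceed 1.6 in WT, a loss of the mark from WT cannot be read from these values. Broad ATAC-seq regions were listed within 1 kb of all 7 members in each of the 4 lines with a list, as for 96.6% to 96.8% of promoters.

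Expression was then measured in the 4 lines with RNA-seq. The values are normalized counts, reads divided by the size factor of the library. *Sox7* was at 4.002 and 3.85 in WT, 1.05 and 19.4 in *Ezh2* KO, 25.6 and 61.3 in *Ezh1/2* dKO, and 20.5 and 20.1 in *Ezh2* Y726D. Both libraries of the last 2 lines were above both WT libraries, and the 2 *Ezh2* KO libraries stood on either side of WT. *Sox17* was at 0 and 2.89 in WT, 1.65 and 1.78 in *Ezh1/2* dKO and 0 in all 4 libraries of *Ezh2* KO and *Ezh2* Y726D. No library had more than 3 *Sox17* reads, which was at or under the floor of 3 reads, so no fold is given, and a change of *Sox17* was not detectable at this depth.

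*Hnf4a* was at 1.33 and 14.4 in WT, 0 and 5.81 in *Ezh2* KO, 7.42 and 7.10 in *Ezh1/2* dKO and 17.8 and 12.3 in *Ezh2* Y726D. The WT libraries enclosed those of *Ezh1/2* dKO and overlapped with the other 2 lines. A gene model on the opposite strand overlaps *Hnf4a*, and counting ignored the strand, but that gene had reads in only 1 of the 8 libraries. *Pdgfra* was at 2.67 and 15.4 in WT, 1.05 and 2.90 in *Ezh2* KO, 14.01 and 15.1 in *Ezh1/2* dKO and 2.67 and 11.2 in *Ezh2* Y726D. The *Ezh1/2* dKO libraries lay above both *Ezh2* KO and both *Ezh2* Y726D libraries and between the 2 WT libraries.

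*Dab2* was at 10.7 and 6.74 in WT, 5.23 and 1.94 in *Ezh2* KO, 74.2 and 60.4 in *Ezh1/2* dKO and 22.3 and 7.83 in *Ezh2* Y726D. The *Ezh1/2* dKO libraries were above all 6 others, and the *Ezh2* KO libraries were below both WT libraries. The mm9 annotation holds a second gene identifier named *Dab2* and an antisense model inside the gene, and unstranded reads from that model and *Dab2* cannot be told apart. *Sparc* was the only abundant member, at 1570 and 900 in WT, 1139 and 1244 in *Ezh2* KO, 1325 and 1416 in *Ezh1/2* dKO and 1142 and 1509 in *Ezh2* Y726D. The WT libraries enclosed all 6 mutant libraries. *Afp*, the main serum protein of the visceral endoderm and fetal liver, on chr5:90919740-90937933, had 1 read in each *Ezh1/2* dKO library and none in the other 6, and is reported without a fold.

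**Figure D2:**
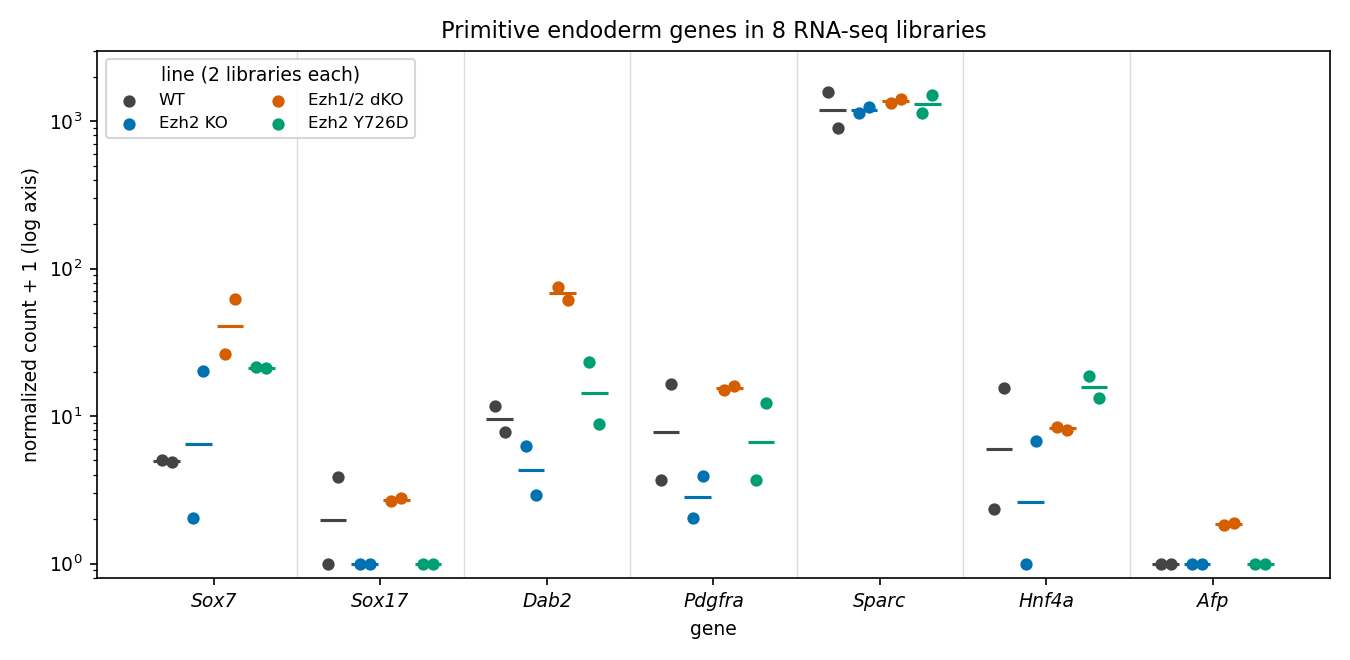
Normalized count plus 1 (log axis) of the 7 genes in the 8 RNA-seq libraries. Points are libraries, coloured by line, and bars are the means of the 2 libraries on the log scale. *Dab2* in *Ezh1/2* dKO, at 74.2 and 60.4 before adding 1, stands above all other lines, *Sparc* stays between 900 and 1570, and *Sox17* and *Afp* lie at 0 to 2.89.

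Differences between lines were tested with limma on the log2 of the normalized count plus 1, adjusted by Benjamini-Hochberg over the 13872 genes with a mean of at least 5, and calls required an adjusted p under 0.1 together with a log2 fold change of 1 or more in size. Adding 1 understates the fold of low genes. Of the 7 members, 5 passed the filter, and *Sox17* and *Afp* did not. In *Ezh1/2* dKO versus WT, 1 of the 5 was called, against 4.02% of the genes tested (3.63% higher and 0.389% lower). *Dab2* rose 7.15-fold on this scale (log2 2.84, SE 0.624, limma adjusted p = 0.0522), in 2 of 2 libraries. *Sox7* differed by 3.05 (SE 0.936, adjusted p = 0.13), with 8.25-fold and both libraries above WT, and did not pass. Both libraries lay above both WT libraries for 2 of the 5 members, where this was the case for 28% of the genes tested, and none lay below both (24.5%). The *Dab2* call was lost in limma at an adjusted p of 0.113 without WT replicate 2, of 0.342 without *Ezh1/2* dKO replicate 1 and of 0.314 without *Ezh1/2* dKO replicate 2, while its log2 fold change stayed between 2.54 and 3.13. Without either *Ezh2* KO library, *Sox7* passed in limma, with an adjusted p of 0.0483 or 0.0519.

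The direct comparison of *Ezh1/2* dKO with *Ezh2* KO asks what the loss of EZH1 adds when EZH2 is absent. *Dab2* rose by 3.99 (SE 0.624, adjusted p = 0.0152 in limma), 15.9-fold, and was the 1 member called, where 3.58% of the genes tested were called, 3.52% higher and 0.0577% lower. All 5 members tested were higher in both *Ezh1/2* dKO libraries than in both *Ezh2* KO libraries, which was so for 26.6% of the genes tested, with 26.9% below. The log2 fold changes were 2.66 (SE 0.936) for *Sox7*, 2.46 (SE 0.867) for *Pdgfra*, 1.66 (SE 1.06) for *Hnf4a* and 0.20 (SE 0.237) for *Sparc*, with adjusted p-values in limma of 0.231, 0.231, 0.594 and 0.794. The *Dab2* call was lost without *Ezh1/2* dKO replicate 1 (adjusted p = 0.17) or 2 (adjusted p = 0.168), where the remaining library is assumed to vary like the other lines. *Sox7* passed without *Ezh2* KO replicate 2 (log2 fold change 4.31, adjusted p = 0.0505), the library that held 19.4, and differed by 1.00 without *Ezh2* KO replicate 1. *Hnf4a* ranged from 0.28 to 3.05 over the same 2 fits.

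No member was called in *Ezh2* KO versus WT, in *Ezh2* Y726D versus WT, or in *Ezh2* Y726D versus *Ezh2* KO or *Ezh1/2* dKO. Of all genes tested with limma, 0.404% were called in the first (0.0937% higher and 0.31% lower), 2.72% in the second (1.66% and 1.06%), 3.53% in the third (2.31% and 1.21%) and 1.68% in the fourth (0.187% and 1.49%). At an unadjusted p under 0.05, the members that passed numbered 0, 1 (*Sox7*), 2 (*Dab2* and *Hnf4a*) and 1 (*Dab2*) in the same order, and edgeR and DESeq2 called 0 in all 4. *Sox7* differed from WT by 2.11 in *Ezh2* Y726D (SE 0.936, adjusted p = 0.348). It was the 1 member whose 2 libraries there exceeded those of WT (19% of genes tested), and none lay below (18.1%). The log2 fold change of *Dab2* in *Ezh2* Y726D versus *Ezh1/2* dKO was -2.24 (SE 0.624, adjusted p = 0.151), and it passed without *Ezh2* Y726D replicate 1. Against *Ezh1/2* dKO, the *Ezh2* Y726D libraries were both lower for 3 members (25.2%) and both higher for *Hnf4a* (22.1%). Against *Ezh2* KO they were both higher for *Sox7*, *Dab2* and *Hnf4a* (22.2%) and both lower for none (22.1%). In *Ezh2* KO, *Dab2* was the 1 member with both libraries below both WT libraries (17.6% of genes tested), and none was above (18%). The log2 fold change of *Dab2* there was -1.15 (SE 0.624, adjusted p = 0.647). These comparisons share libraries, so they are not independent of each other.

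**Figure D3:**
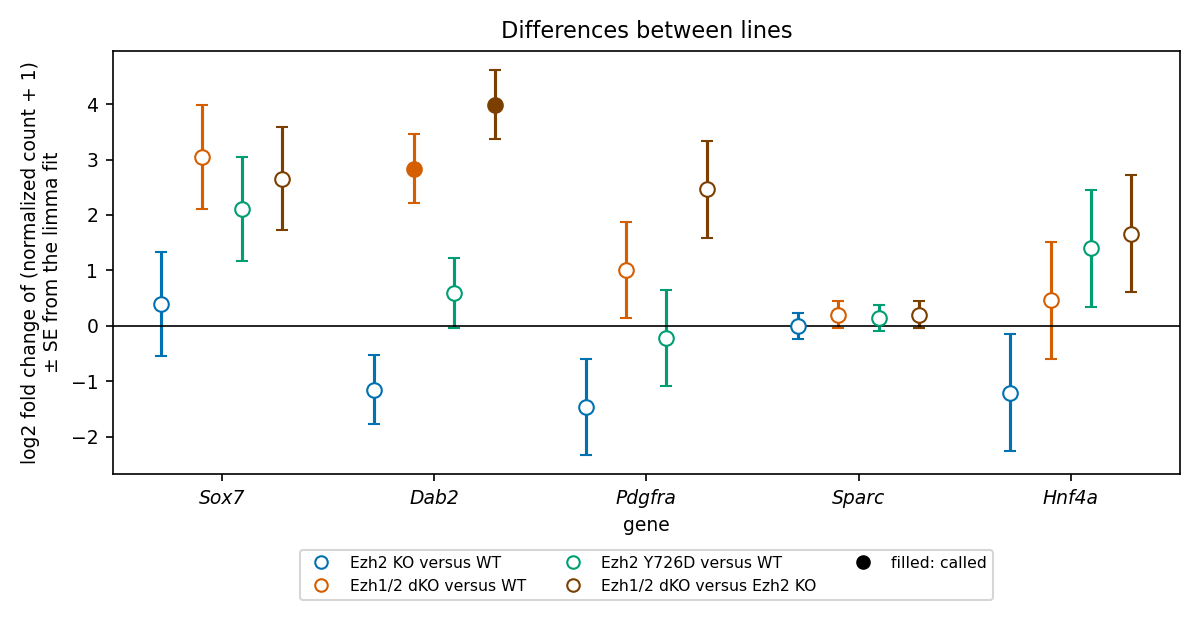
Log2 fold change of the normalized count plus 1 for the 5 members tested, with the SE of the limma fit as bars, in 3 comparisons with WT and in *Ezh1/2* dKO versus *Ezh2* KO. Filled points are called. Only *Dab2* is filled, at 2.84 and 3.99, and the *Sparc* points lie between 0.00 and 0.20.

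Levels of different genes were compared per kb of annotated exon. In WT, *Sparc* was at 367 normalized counts per kb and no other member exceeded 1.57, the mean of *Hnf4a*. *Hnf4a*, *Pdgfra*, *Sox7* and *Dab2*, at 1.57, 1.34, 1.19 and 1.19, had overlapping libraries and are not ordered. *Sox17*, at 0.458, overlapped *Hnf4a* and *Pdgfra*, and *Afp* was listed at 0. The order in *Ezh1/2* dKO was *Sparc* at 407, *Sox7* at 13.2, *Dab2* at 9.16, *Pdgfra* at 2.16, *Hnf4a* at 1.45, *Sox17* at 0.543 and *Afp* at 0.41. *Sox7* and *Dab2* overlapped in their libraries, the other neighbours did not, and *Sox17* and *Afp* rest on 4 reads and 2 reads. *Ezh2* Y726D had *Sparc* at 394, *Sox7* at 6.16, *Hnf4a* at 3.002, *Dab2* at 2.05 and *Pdgfra* at 1.03, where *Dab2* overlapped both of its neighbours. In *Ezh2* KO the levels per kb were 354 for *Sparc*, 3.09 for *Sox7*, 0.578 for *Hnf4a*, 0.488 for *Dab2* and 0.293 for *Pdgfra*, and the last 4 overlapped.

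The genes with a pattern most like that of a member were named by Pearson correlation of log2 values over the 8 libraries, among the genes with a mean of at least 50, as a description with no p. Genes like *Sox7* included *Plek2* (r = 0.986) and *Chst15* (0.973). *Plek2* averaged 32.3 normalized counts in the WT libraries, against 107 for *Ezh1/2* dKO, 76.5 for *Ezh2* Y726D and 46.9 for *Ezh2* KO. *Dab2* was most like *Scamp1* (0.969), *Golim4* (0.963) and *Trp53inp2* (0.961). *Pdgfra* was most like *Smarcd2* (0.917), *Tert* (0.91) and *Ddit4l* (0.895), *Sparc* like *Pdlim7* (0.995), *Ost4* (0.991) and *Tubb6* (0.985), and *Hnf4a* like *Inpp5f* (0.982), *Mcc* (0.966) and *Nt5e* (0.94). The 3 genes most like *Sparc* shared its gap between the WT libraries. *Tubb6* was at 900 and 377 there, and *Pdlim7* at 486 and 275. Among the members, r ranged from -0.207 for *Sparc* with *Hnf4a* to 0.635 for *Pdgfra* with *Hnf4a*, and was 0.57 for *Sox7* with *Dab2*. The 8 points come in pairs from 4 lines.

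The other genes of the lineage were taken from lists that were also chosen with earlier results of these data known. Of 8 further regulators of primitive endoderm, 3 passed the filter, and *Gata4* was called higher in *Ezh1/2* dKO versus WT. *Gata4*, the GATA factor that acts after *Gata6*, was at 2.67 and 4.81 in WT, 3.14 and 5.81 in *Ezh2* KO, 22.3 and 20.4 in *Ezh1/2* dKO and 14.3 and 15.7 in *Ezh2* Y726D. The log2 fold change in *Ezh1/2* dKO was 2.27 (SE 0.548, adjusted p = 0.0674 in limma), and the call was lost without WT replicate 1, without either *Ezh1/2* dKO replicate and with DESeq2 (adjusted p = 0.194) or quantile normalization. *Gata6* was under the filter, with 9 and 13 reads in *Ezh1/2* dKO, 4 and 1 in *Ezh2* Y726D and at most 2 in any other library. Of the 8 regulators, 7 had a SUZ12 peak (16.9% of all promoters) and 6 an H3K27me3 peak (21.5%) at the promoter in WT. *Ezh2* Y726D cells had SUZ12 at 7 (11.9%) and H3K27me3 at 0 (1.11%). In that line 4 of the 8, *Gata4*, *Gata6* and *Hhex* among them, had an H3K27ac peak, where 59.1% of all promoters had one. *Hhex* was the 1 regulator with H3K27ac in *Ezh1/2* dKO, *Ezh2* KO and *Ezh2* R685C.

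Of 13 genes of FGF and PDGF signalling, all passed the filter, and limma, edgeR and DESeq2 called 0 in each comparison of a mutant line with WT. At an unadjusted p under 0.05 there were 2 each for *Ezh2* KO and *Ezh1/2* dKO and 0 for *Ezh2* Y726D. *Fgfr2*, a receptor for FGF4, was called in *Ezh1/2* dKO versus *Ezh2* KO (log2 fold change 3.28, SE 0.595, limma adjusted p = 0.028). It was at 24.01 and 12.5 in WT, 1.05 and 3.87 in *Ezh2* KO, 32.1 and 27.5 in *Ezh1/2* dKO and 9.81 and 13.4 in *Ezh2* Y726D, and the call was lost without *Ezh2* KO replicate 1, without either *Ezh1/2* dKO replicate and with quantile normalization. *Fgf4* was at 314 to 319 in WT and 277 to 441 in the mutant lines. The median log2 fold change of this list versus WT was -0.47 in *Ezh2* KO, -0.29 for *Ezh1/2* dKO and 0.06 for *Ezh2* Y726D, where those of all genes tested were -0.01, 0.01 and -0.01. The 2 *Ezh2* Y726D libraries were unlike each other for *Spry2* (408 and 724), *Spry4* (142 and 701), *Dusp6* (234 and 695) and *Etv4* (42.8 and 436). For each of these genes, replicate 2 was the highest of the 8 libraries. *Fgf4*, *Grb2*, *Ptpn11* and *Pdgfa* were lower in replicate 2 than in replicate 1.

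Of 17 basement membrane and parietal endoderm genes, 16 passed the filter, and 5 rose (3.63% of all genes tested) and 0 fell (0.389%) in *Ezh1/2* dKO versus WT. These were *Col4a1* and *Col4a2*, which encode the collagen IV chains and share a promoter, *P4ha2*, a collagen prolyl hydroxylase, *Plat*, tissue plasminogen activator, and *Thbd*, thrombomodulin. *Col4a1* was at 147 and 80.9 in WT, 117 and 61.9 in *Ezh2* KO, 896 and 660 in *Ezh1/2* dKO and 718 and 954 in *Ezh2* Y726D. All *Ezh1/2* dKO and *Ezh2* Y726D libraries stood above those of the other 2 lines, with a log2 fold change of 2.81 (SE 0.355, adjusted p = 0.00942 in limma) in *Ezh1/2* dKO and 2.91 (SE 0.355, adjusted p = 0.0102) in *Ezh2* Y726D versus WT. *Col4a2* differed by 2.47 and 2.62 in the same comparisons (adjusted p = 0.0114 and 0.0113). *P4ha2* differed by 1.99, *Plat* by 3.29 and *Thbd* by 3.27 in *Ezh1/2* dKO versus WT, and *Thbd* had 2 reads and 1 read in WT. The *Thbd* call was lost in 6 of the 8 fits that left out 1 library, all but those without an *Ezh2* Y726D library, and also with quantile normalization and with no filter on low values. Without either *Ezh1/2* dKO library, 0 of the 16 were called in this comparison.

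In *Ezh2* Y726D versus WT, *Col4a1* and *Col4a2* rose and *Serpinh1*, the chaperone that folds collagen, fell by 1.39 on the log2 scale (SE 0.308, adjusted p = 0.064 in limma). *Serpinh1* is named although it lies outside the rule for list genes, as is *Plod2* below, and both were chosen after their values were seen. It was at 598 and 704 in WT and 370 and 164 in *Ezh2* Y726D, and its call was lost in 7 of the 8 fits that left out 1 library, all but that without *Ezh2* Y726D replicate 1. In *Ezh2* KO versus WT, 0 of the 16 were called by limma or edgeR and 1 by DESeq2 (*Lamb1*, the 1 gene with an unadjusted p under 0.05). In *Ezh1/2* dKO versus *Ezh2* KO, *Col4a1*, *Col4a2*, *Lamb1*, *P4ha2* and *Plod2* rose. Leaving out 1 library gave 2 to 8 calls in this comparison. *Plod2* was lost without any 1 of the *Ezh2* KO or *Ezh1/2* dKO libraries, *Lamb1* without either *Ezh1/2* dKO library and *P4ha2* without *Ezh1/2* dKO replicate 2. *Lamb1*, a laminin chain, was at 192 and 157 in WT, 107 and 41.6 in *Ezh2* KO, 327 and 262 in *Ezh1/2* dKO and 258 and 242 in *Ezh2* Y726D. The median log2 fold change of the list was 0.69 in *Ezh1/2* dKO and 0.37 in *Ezh2* Y726D versus WT, against 0.01 and -0.01 over all genes tested.

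**Figure D4:**
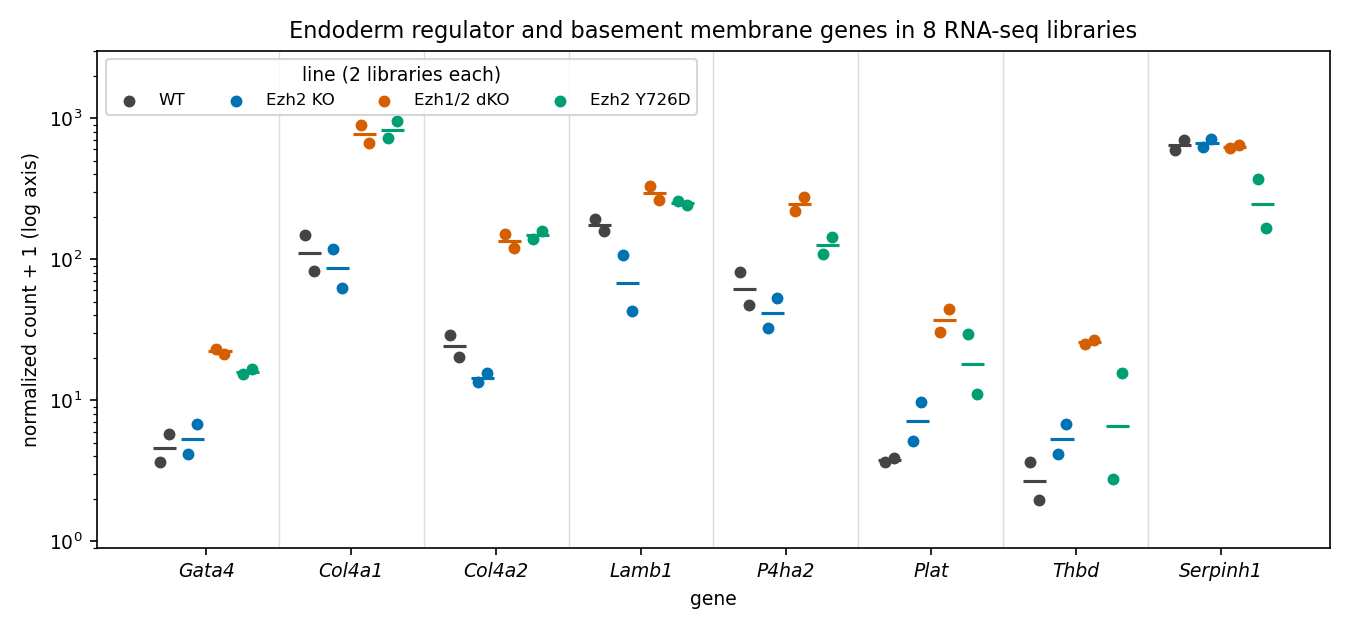
Normalized count plus 1 (log axis) of *Gata4* and of 7 basement membrane and parietal endoderm genes in the 8 RNA-seq libraries. Points are libraries, coloured by line, and bars are the means of the 2 libraries on the log scale. *Col4a1* lies at 660 to 954 in *Ezh1/2* dKO and *Ezh2* Y726D and at 61.9 to 147 in WT and *Ezh2* KO, and *Serpinh1* is lowest in *Ezh2* Y726D.

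In WT, 9 of the 17 basement membrane genes had a SUZ12 peak (16.9% of all promoters) and 8 an H3K27me3 peak (21.5%) at the promoter, *Col4a1* and *Col4a2* with both. At these 2 genes SUZ12 was listed in *Ezh2* KO, *Ezh2* Y726D and *Ezh2* R685C and H3K27me3 in *Ezh2* KO and *Ezh2* R685C. H3K27ac was listed there in *Ezh1/2* dKO and *Ezh2* Y726D and not in *Ezh2* KO or *Ezh2* R685C. H3K27ac was listed at 8 of the 17 genes in *Ezh1/2* dKO (36% of all promoters) and at 10 in *Ezh2* Y726D (59.1%). *P4ha2*, *Plat* and *Thbd*, called higher in *Ezh1/2* dKO versus WT, were not among these 8. *Lama1*, *Nid2* and *Hspg2* were among them without being called. Among the members, *Dab2* was called higher in *Ezh1/2* dKO without an H3K27ac peak at any start site, and *Sparc* had H3K27ac without a called difference in RNA. Whether H3K27ac and RNA are linked at these genes was not tested. Without WT H3K27ac, a gain of the mark cannot be judged. Of 18 visceral endoderm genes in the table, 9 passed the filter. *Amn*, part of the receptor that takes up vitamin B12 with cubilin, rose in *Ezh1/2* dKO (log2 fold change 2.47, SE 0.446, adjusted p = 0.0295 in limma) and *Ezh2* Y726D (2.54, SE 0.446, adjusted p = 0.0324) versus WT. It was at 6.67 and 7.70 in WT, 23.0 and 13.5 in *Ezh2* KO, 55.2 and 35.5 in *Ezh1/2* dKO and 50.8 and 42.5 in *Ezh2* Y726D. The *Ezh1/2* dKO call of *Amn* was lost without either library of that line, and its *Ezh2* Y726D call with only the 2 lines compared. *Trf*, transferrin, rose in *Ezh2* Y726D versus WT (1.75, SE 0.448, adjusted p = 0.0988 in limma), a call lost in all 8 fits that left out a library. Limma, edgeR and DESeq2 also called *Trf* in *Ezh1/2* dKO and *Ezh2* Y726D versus *Ezh2* KO, where it was at 11.5 and 7.74. The *Ezh1/2* dKO call versus *Ezh2* KO was lost with quantile normalization and without any 1 library of these lines. *Rbp4*, a retinol carrier, was called in *Ezh1/2* dKO and *Ezh2* Y726D versus *Ezh2* KO, where it was at 1.05 and 2.90, but not versus WT, at 22.7 and 11.6. It was called versus WT in *Ezh1/2* dKO by edgeR and with a pseudocount of 5, and for *Ezh2* KO without WT replicate 2.

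Of the markers of other lineages, *Thy1* and *Gata3* were called versus WT in the same lines. *Thy1*, the 1 gene of the fibroblast list that passed the filter, rose in *Ezh1/2* dKO (3.53) and *Ezh2* Y726D (3.30 on the log2 scale) versus WT. The 5 fibroblast genes in the table summed to 4.81 to 16.7 normalized counts in WT and *Ezh2* KO and 86.1 to 116 in the other 2 lines, where 0 to 2 of the 5 were at 0, and *Thy1* alone gave 76.1 to 101 of these. *Gata3*, of the trophoblast list, rose in both lines too (2.26 and 1.78, the latter not called by edgeR), and the 6 trophoblast genes summed to 327 and 155 in WT, 358 and 471 in *Ezh1/2* dKO and 232 and 744 in *Ezh2* Y726D. The 5 mesendoderm genes in the table summed to 58.7 and 64.5 in WT, 73.4 and 95.0 in *Ezh1/2* dKO and 68.7 and 195 in *Ezh2* Y726D, with 0 of 4 tested called by limma, edgeR or DESeq2 and 1 and 2 at an unadjusted p under 0.05 versus WT. *Ezh2* Y726D replicate 2 thus held the highest sum of both lists, and its replicate 1 lay between the WT libraries for the first. *Kdr*, of the endothelial list, was called by limma only in *Ezh2* Y726D versus *Ezh2* KO, and by DESeq2 also in *Ezh2* Y726D versus WT and in *Ezh1/2* dKO versus *Ezh2* KO, and the 5 endothelial genes in the table summed to 772 to 905 in WT and 544 to 973 in these 2 lines. Collagen genes of fibroblasts were near 0, with at most 13 *Col1a1* reads in any library. The part of other lineages in the values of *Dab2* and of the basement membrane genes was not tested.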

How the data were processed

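RNA-seq (SMART-seq2, 8 libraries of 4 lines), ChIP-seq and ATAC-seq of mouse ESCs were used. The authors aligned the RNA-seq reads to mm9 with TopHat, discarded duplicates and used HTSeq-count without strand, then DESeq2 size factors. What they deposited is a normalized count, a signal per gene and library. Dividing by the smallest value of a library returned whole reads for 100% of values within 0.001. ChIP-seq reads that mapped once with Bowtie were freed of duplicates by the authors with PICARD, and MACS2 called the peaks. Each deposited peak has a fold enrichment and a -log10 p, except HA peaks, which have positions only. The Drosophila spike-in does not enter the lists.

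Genes were tested with limma 3.58.1 in R 4.3.3 as stated above, with all 8 libraries in 1 fit, and the whole reads were also tested with edgeR 4.0.16 and with DESeq2 1.42.0. In data simulated for *Ezh1/2* dKO versus WT over 13696 genes, the test called 178 of the 200 genes given a 4-fold change and 14 of the rest. This recovery was not split by expression level, so it does not give the power for members with low counts. Start sites, exon lengths and overlaps come from the GENCODE annotation of mm9, in which 16570 table genes were matched by symbol, 854 by synonym and 631 not. A promoter had a peak when a listed peak reached within 5 kb of any annotated protein-coding start. Broad regions of H3K27me1, H3K27me2 and ATAC-seq were used as deposited within 1 kb, and H3K27me1 gave no value above a -log10 p of 1.9 at a member. Named genes were the members, up to 6 called genes of each list by their largest change, the 3 genes most like each member, *Ezh1* and *Ezh2*. Some items that this rule or the lists would name are not reported here. The members and lists were chosen with earlier results of these data known. Alternatives to the pseudocount, filter, normalization, test, samples, threshold, window and peak threshold were run. The authors' tables of differential expression (log2 fold change and p-values) were not used, and RING1B, H2AK119ub, WT H3K27ac, input, EZH2 rescue and DMSO or MG132 samples were not analysed here.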

Additional observations from a re-analysis of the deposited data

Results flagged for a closer look

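The difference of *Dab2* from WT was not the same in *Ezh1/2* dKO as in *Ezh2* KO. The direct test of the 2 lines gave a log2 difference of 3.99 (SE 0.624, limma adjusted p = 0.0152). The normalized counts were 5.23 and 1.94 in *Ezh2* KO against 74.2 and 60.4 in *Ezh1/2* dKO, on either side of 10.7 and 6.74 in WT. The WT SUZ12 peak at its internal start was listed in neither line, and an H3K27me3 peak of 200 bp at that start was listed in *Ezh2* KO. The *Ezh1/2* dKO list of H3K27me3 has no entry on chromosome 15, where the gene lies.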

How the results depend on the processing

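The number of members called in *Ezh1/2* dKO versus WT was 1 and became 2 (*Dab2* and *Sox7*) with a pseudocount of 5, with DESeq2 or with only the 2 lines compared, and 0 at an adjusted p under 0.05. Leaving out 1 library gave 0 to 2. In *Ezh1/2* dKO versus *Ezh2* KO, 1 became 3 with only the 2 lines compared, and 0 to 2 with 1 library left out. In *Ezh2* Y726D versus *Ezh1/2* dKO, 0 became 1 with a pseudocount of 5 and 0 to 1 with 1 library left out. The counts of 0 in the other 3 comparisons stayed at 0 in all alternatives run. Leaving out an *Ezh1/2* dKO library left 9 or 3 calls over all genes in this line versus WT, where there were 557 with both. Quantile normalization changed the split of all genes called there from 503 higher and 54 lower to 290 and 129, and in *Ezh2* Y726D versus *Ezh1/2* dKO from 26 and 207 to 50 and 168.

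Other counts over all genes that moved by more than 1.5 times are given as higher and lower. In *Ezh1/2* dKO versus WT, the count was 254 and 31 at an adjusted p under 0.05. *Ezh2* KO versus WT had 13 and 43, which became 7 and 28 with no filter, 9 and 25 with quantile normalization or the replicate block, 7 and 23 with edgeR, 46 and 103 with DESeq2, 5 and 23 with only the 2 lines compared, 6 and 25 at an adjusted p under 0.05, and 0 and 6 to 53 and 82 with 1 library left out. *Ezh2* Y726D versus WT had 230 and 147, which became 20 and 12 with only the 2 lines compared, 117 and 83 at the stricter p, and 88 and 68 to 216 and 330 with 1 library left out. *Ezh1/2* dKO versus *Ezh2* KO had 488 and 8, which became 253 and 5 with a mean of at least 20, 166 and 10 with quantile normalization, 1124 and 57 with only the 2 lines compared, 297 and 2 at the stricter p, and 52 and 1 to 644 and 21 with 1 library left out. *Ezh2* Y726D versus *Ezh2* KO had 321 and 168, which became 146 and 82 with only the 2 lines compared, 174 and 92 at the stricter p, and 71 and 27 to 422 and 540 with 1 library left out. *Ezh2* Y726D versus *Ezh1/2* dKO became 17 and 133 with only the 2 lines compared, 9 and 94 at the stricter p, and 1 and 13 to 61 and 453 with 1 library left out.

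Deviations of same-numbered libraries correlated at 0.223, 0.241 and 0.288 between the 3 mutant lines and at -0.409, -0.144 and -0.0653 between WT and these. The numbers were not used as pairs, since not every correlation exceeded 0.1. With the replicate number as a block, the numbers of members called stayed at 1 in *Ezh1/2* dKO versus WT and versus *Ezh2* KO and at 0 in the other 4 comparisons, and of the list genes called versus WT or in *Ezh1/2* dKO versus *Ezh2* KO, *Trf* in *Ezh2* Y726D lost its call (limma adjusted p = 0.122).

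Fold changes of single genes were recomputed in the 3 comparisons with WT and in *Ezh1/2* dKO versus *Ezh2* KO, and not in the other 2. Within these, signs turned only for differences from WT that were not called. *Hnf4a* in *Ezh1/2* dKO went to -0.50 with quantile normalization, -0.19 with edgeR, -0.15 with DESeq2 and, with 1 library left out, -0.90 to 1.82. *Sparc* in *Ezh2* KO went to -0.029 with edgeR and -0.050 with DESeq2. With 1 library left out, the ranges that crossed 0 were -0.40 to 0.40 (*Sparc*), -1.27 to 2.05 (*Sox7*) and -2.59 to 0.18 (*Hnf4a*) in *Ezh2* KO, -0.078 to 2.08 (*Pdgfra*) and -0.20 to 0.61 (*Sparc*) in *Ezh1/2* dKO, and -0.11 to 1.29 (*Dab2*), -1.29 to 0.87 (*Pdgfra*) and -0.26 to 0.54 (*Sparc*) in *Ezh2* Y726D.

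These numbers of members with a peak moved by more than 1.5 times. For SUZ12 in *Ezh1/2* dKO, 1 became 0 with a window of 1 kb or a p of at most 1e-20, and in *Ezh2* Y726D 3 became 1 at that p. For H3K27me3 in WT, 5 became 2 at that p and 3 with only the 5′ end of the gene. For H3K27ac in *Ezh2* KO and *Ezh1/2* dKO, 1 became 0 at that p. The 3 members with SUZ12 in *Ezh2* KO and with H3K27ac in *Ezh2* Y726D became 2 with a window of 1 kb or at that p, as did those with SUZ12 in *Ezh2* Y726D with a window of 1 kb. Depth limits *Sox17* and *Afp*, and the depth behind the peak lists is unknown. The causes of these changes were not tested. The alternatives for the list genes were added after seeing the data.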
